A study of Rattus norvegicus with 6 samples.

Results

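The proliferation and mitosis genes are 40 genes that serve DNA replication, the cyclin-dependent kinases and chromosome segregation, listed by symbol. Of these, 39 were found among the 43350 gene rows of the table, and Ccnb2, which encodes cyclin B2, was not matched by symbol. They were measured by RNA-seq in the lumbar dorsal root ganglia (DRG, segments L4 to L6) of male Sprague-Dawley rats after chronic constriction injury (CCI), in which the left sciatic nerve is tied loosely. The CCI group (n = 3) was compared with a sham group (n = 3). In sham surgery the nerve was exposed without ligation, and the labels give this treatment as none. The ganglia were taken from the operated side on day 11 after surgery, with 1 rat per library by the study's methods, although the labels speak of pooled samples, and both groups carried no other treatment or genetic change named in the labels. The question put to these genes is whether the ganglion of the injured nerve holds more transcripts of dividing cells.

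A cell that divides first loads the MCM helicase on its replication origins with the help of Cdc6 and Cdt1, then copies its DNA with PCNA at the fork while Tyms and Rrm2 supply nucleotides. Cyclins E and A start and carry replication, cyclin B with Cdk1 drives entry into mitosis, and the Aurora, Polo and checkpoint kinases, kinesins and the anaphase-promoting complex then separate the chromosomes and the daughter cells. Sensory neurons are postmitotic, whereas satellite glia, Schwann cells, fibroblasts, endothelium and macrophages of the ganglion keep the ability to divide. The paper cites earlier studies that found more macrophages in injured ganglia, and calls their source, local division, recruitment or both, controversial. Bulk tissue was measured, so a change in the number of cells of a type and a change in RNA per cell cannot be told apart.

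The counts summed to 81131861, 80479671 and 75423546 in CCI replicates 1, 2 and 3 and to 87615743, 80046488 and 83695350 in Sham replicates 1, 2 and 3, and values are given in this order throughout. Levels are given as counts, as CPM, counts scaled to the size of the library, or as FPKM, the authors' values scaled to library size and row length. A count of 3, taken as the detection limit of a library, corresponds to 0.0342 to 0.0398 CPM and covers counting error only. The libraries carried the transcripts expected of a ganglion in abundance, with a mean of 1248 FPKM for neuronal tubulin Tubb3 and 938 FPKM for Apoe of the satellite glia.

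Against that background the members were scarce. The median of their mean FPKM was 0.843, compared with 4.44 over the 15930 protein-coding rows tested, and 37 of the 39 members lay below that value. Mean FPKM was under 1 for 26 members and under 0.5 for 11. Pcna, the sliding clamp of the replication fork, which also serves DNA repair, was the most abundant with a mean of 12.6 FPKM, and Mcm4 followed with 4.73 FPKM. Ube2c, the ubiquitin-conjugating enzyme of the anaphase-promoting complex, was the least abundant with 0.0734 FPKM, and its row had 16, 33 and 12 counts in the CCI libraries and 7, 31 and 17 counts in the sham libraries. The 7 counts of Ube2c in Sham 1 were the lowest value of any member in any library, so no member was at 0. All 39 members had a mean of at least 10 counts and were tested.

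In the CCI group 2 of the 39 members were called higher and 0 were called lower, by the quasi-likelihood test of edgeR with an unadjusted p below 0.05 and a size of 0.58 or more on the log2 scale. The members called were Mcm5, a subunit of the replicative helicase, and Prc1, a microtubule bundler of the central spindle. By the same rule 820 of the 29307 rows tested were higher (2.80%) and 405 were lower (1.38%), while the 2 members are 5.13% of 39. With Benjamini-Hochberg adjustment over all rows, 0 members passed an adjusted p under 0.05, against 24 rows (0.0819%), and the lowest adjusted p of a member was 0.207. At an unadjusted p under 0.05 alone, 3 members passed (7.69%), a smaller share than the 10.4% of all rows. Leaving out single libraries gave 5 (without Sham 1) to 58 rows (without CCI 1) past the adjusted limit, and by the first rule 4 members without Sham 1 (Mcm5, Prc1, Plk1 and Cenpf) and 1 without Sham 3 (Mcm5). DESeq2 on the same counts called 1 member at an adjusted p under 0.05, Mcm5 (adjusted p = 0.00319), and 778 of 27998 rows (2.78%).

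Most members nevertheless had a positive log2 fold change. It was above 0 for 30 of the 39 members (76.9%), compared with 51.1% of all rows tested and 49.1% of protein-coding rows. The median log2 fold change of the members was 0.18, with quartiles at 0.02 and 0.38, while it was 0.0060 over all rows and -0.0042 over protein-coding rows. The CCI libraries lay entirely above the Sham libraries in 8 members (20.5%) and the Sham libraries above the CCI libraries in 0, whereas 8.57% of all rows were separated in the first way and 8.51% in the second. The 8 members were Mcm5, Mcm7, Cdc20, Kif11, Tpx2, Prc1, Anln and Top2a. The median standard error of a member's log2 fold change was 0.23, compared with 0.13 for protein-coding rows. The 95% interval stayed within -1 and 1 for 26 members and reached past 1 or -1 for 13.

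**Figure D1:**
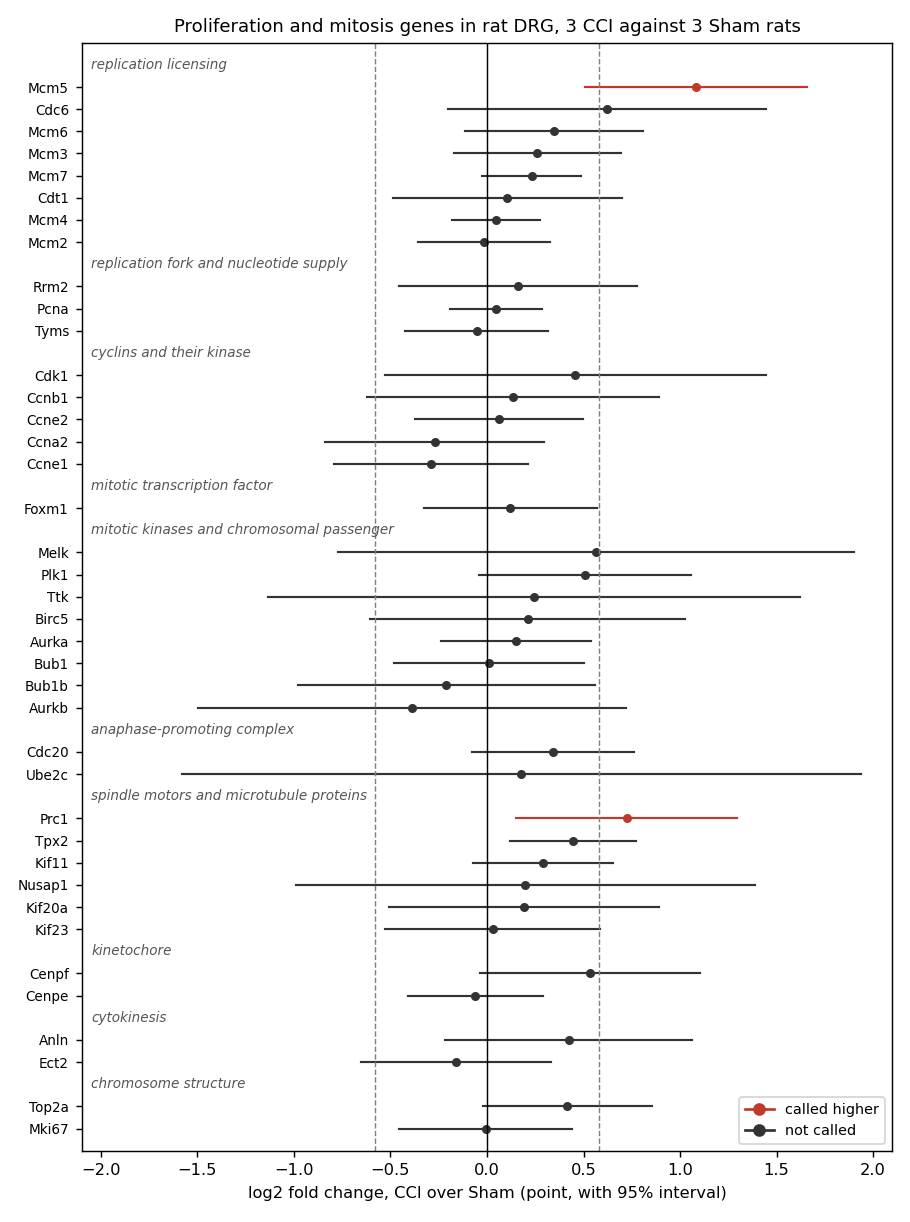
Log2 fold change of each of the 39 members in CCI over Sham ganglia, grouped by role, with its 95% interval from edgeR (n = 3 per group); dashed lines mark the size of 0.58 used for calls. Mcm5 and Prc1, in red, are the members called, and 30 of the 39 points lie to the right of 0.

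**Figure D2:**
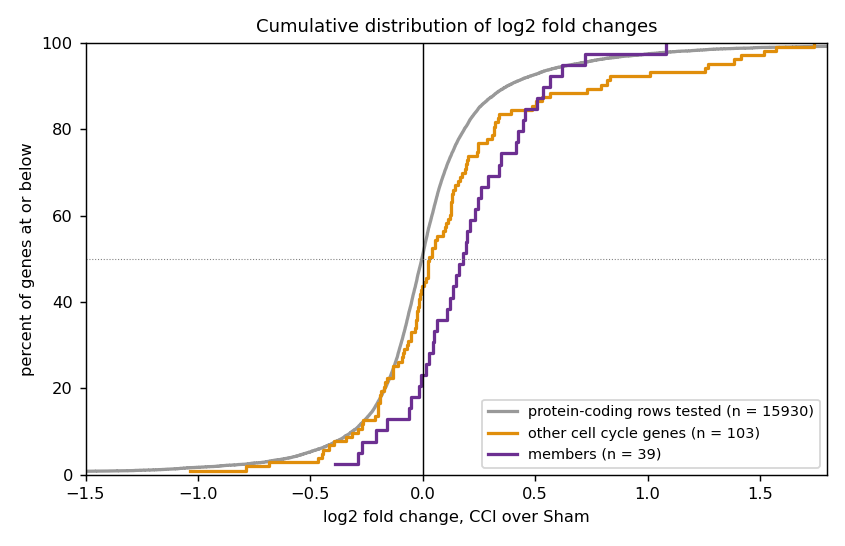
Cumulative percent of genes by log2 fold change for the members, the other cell cycle genes and all protein-coding rows tested. The curve of the members crosses 50% at 0.18, that of the other cell cycle genes at 0.03 and that of protein-coding rows at -0.0042.

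The median depended on single libraries and on the scale. It was 0.11 without Sham 3, 0.11 without CCI 3 and 0.26 without Sham 2, and 0.08 on the log2(FPKM + 1) scale, which compresses low values. The share of members above 0 also leaned on single libraries. Without CCI 3, Pcna, Bub1, Ttk, Melk, Kif20a, Kif23 and Nusap1 turned negative and Mki67 turned positive. Without Sham 3, Ccne2, Ccnb1, Bub1, Kif20a, Kif23 and Nusap1 turned negative and Aurkb turned positive. Sham 3 was the lowest of the 6 libraries in 16 of the 39 members (41%), while it was lowest in 16.4% of protein-coding rows. The summed CPM of the members was 178, 181 and 189 in the CCI libraries and 173, 172 and 146 in the sham libraries. The sums of the groups did not overlap, with means of 183 ± 5.45 in the CCI group and 164 ± 15.2 in the sham group (SD, n = 3) and a ratio of 1.11. Without Sham 3 the ratio was 1.06. Mki67 and Kif20a, which are among the rows with the most counts, overlap abundant genes on the opposite strand, and without them the sums were 152, 145 and 151 in the CCI libraries and 137, 137 and 123 in the sham libraries. Ccna2, Ccne2 and Aurka, which also overlap genes on the opposite strand, remain in these sums.

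Among the 8 replication licensing genes 1 was called and 7 had a positive log2 fold change. Mcm5 had 663, 419 and 365 counts in the CCI libraries and 250, 201 and 262 counts in the sham libraries. Every CCI library lay above every Sham library, and CCI 1 was the highest. The means were 6.04 ± 1.83 CPM after CCI and 2.85 ± 0.319 CPM after sham surgery (SD, n = 3). Its log2 fold change was 1.08 (95% interval 0.51 to 1.66, standard error 0.24, unadjusted p = 0.00323 and adjusted p = 0.207, edgeR). The call was kept in all 14 alternative fits, with a log2 fold change from 0.58 on the log2(FPKM + 1) scale to 1.23 without CCI 3, and it was 0.81 without CCI 1. The table places Mcm5 on chromosome 19 from 14523554 to 14561278 in the genome the authors call V101, with no other row of 10 or more counts overlapping it.

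The other subunits of the same ring-shaped hexamer were not called. The log2 fold changes of Mcm2, Mcm3, Mcm4, Mcm6 and Mcm7 ranged from -0.02 (Mcm2) to 0.35 (Mcm6). Mcm7 had 948, 933 and 820 counts in the CCI libraries and 901, 683 and 832 counts in the sham libraries, which separate after scaling to library size, with a log2 fold change of 0.23 (95% interval -0.03 to 0.49). In FPKM the subunits differed in level, from a mean of 0.775 for Mcm6 to 4.73 for Mcm4, with Mcm5 at 1.28. The helicase loader Cdc6 had 118, 78 and 59 counts against 78, 46 and 50, a log2 fold change of 0.62 with a 95% interval of -0.20 to 1.44, and it was not called. For Cdt1, the other loader, the log2 fold change was 0.11.

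The 3 genes of the fork and of nucleotide supply showed no difference larger than their spread. Pcna had 1286, 1211 and 1366 counts in the CCI libraries and 1355, 1331 and 1242 counts in the sham libraries, and the groups overlapped. Its log2 fold change was 0.05, and the 95% interval of -0.19 to 0.28 excluded an increase of the size seen in Mcm5. Tyms, thymidylate synthase, and Rrm2, a subunit of ribonucleotide reductase, had log2 fold changes of -0.05 and 0.16. A second row carries the symbol Rrm2 without a type, with 85, 90 and 51 counts in the CCI libraries and 49, 57 and 61 in the sham libraries, and was not used.

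None of the 5 measured cyclins and their kinase was called. Cdk1, the kinase that starts mitosis, had 122, 111 and 87 counts in the CCI libraries and 107, 100 and 37 counts in the sham libraries. The value of Sham 3 stood far below the other 5, and the log2 fold change of 0.46 (95% interval -0.53 to 1.44) became 0.11 without it. Ccne1, cyclin E1, was the most abundant of the group by FPKM (mean 1.98), and its 266, 324 and 399 counts in the CCI libraries overlapped the 391, 418 and 462 of the sham libraries, with a log2 fold change of -0.29. The values were 0.06 for Ccne2, -0.27 for Ccna2 and 0.14 for Ccnb1, so the cyclins lay on both sides of 0. The row of Ccna2 lies wholly within that of Exosc9 on the opposite strand, which had a mean of 1364 counts against 170 for Ccna2, and 521 bases of the Ccne2 row lie under Ints8. The library protocol names dUTP, which marks the second strand, but the methods do not state whether strand was used in counting, so whether reads of such pairs are shared is open.

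Foxm1, the transcription factor that drives genes of mitosis, had 264, 267 and 304 counts in the CCI libraries and 335, 215 and 262 counts in the sham libraries. The groups overlapped, with a log2 fold change of 0.12 (95% interval -0.33 to 0.57).

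The 8 mitotic kinases and passenger proteins gave 0 calls, with 6 values above 0 and 2 below. Aurka, the Aurora kinase of the spindle poles, was the most abundant by FPKM (mean 1.62), with 453, 432 and 344 counts in the CCI libraries and 445, 312 and 406 counts in the sham libraries. These overlapped, and the log2 fold change was 0.15. Of its genomic span 349 bases (2.13%) lie under Cstf1 on the opposite strand, which had a mean of 1101 counts against 399 for Aurka. Plk1, the Polo kinase, had 136, 178 and 169 counts against 151, 94 and 114, a log2 fold change of 0.51 (95% interval -0.04 to 1.06), and it was called without CCI 1 (0.63) and without Sham 1 (0.66). Aurkb and Bub1b, of the chromosomal passenger complex and the spindle checkpoint, had log2 fold changes of -0.39 and -0.21. The value of Aurkb rested on 91 counts in Sham 3 against 32 to 48 in the other 5 libraries, and without Sham 3 it was 0.12. Melk and Ttk varied widely within the CCI group, with 44, 30 and 99 counts and 43, 19 and 83 counts in CCI 1, 2 and 3, and both turned negative without CCI 3. For the checkpoint kinase Bub1 and for Birc5, survivin, the log2 fold changes were 0.01 and 0.21.

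Cdc20, the activator of the anaphase-promoting complex, had 194, 205 and 194 counts in the CCI libraries and 190, 164 and 138 counts in the sham libraries. After scaling the groups did not overlap, and the log2 fold change of 0.34 (95% interval -0.08 to 0.76) was not called. For Ube2c the interval ran from -1.58 to 1.94 around 0.18, too wide at these counts to show a change of 2.12-fold, the size seen in Mcm5.

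All 6 spindle motors and microtubule proteins had positive log2 fold changes and 1 was called, though Kif20a, Kif23 and Nusap1 turned negative without CCI 3 (-0.06, -0.08 and -0.23) and without Sham 3 (-0.02, -0.05 and -0.10), and Kif23 also without Sham 2 (-0.05). Prc1 had 546, 388 and 402 counts in the CCI libraries and 320, 324 and 202 counts in the sham libraries. CCI 1 was the highest and Sham 3 the lowest, and the groups did not overlap. Its level was 5.6 ± 0.99 CPM against 3.39 ± 0.847 CPM (SD, n = 3). The log2 fold change was 0.72 (95% interval 0.15 to 1.29, standard error 0.24, unadjusted p = 0.0205 and adjusted p = 0.37, edgeR). The call was lost without CCI 1 (log2 fold change 0.57, unadjusted p = 0.0662, edgeR), without Sham 3 (0.54) and on the log2(FPKM + 1) scale (0.43). Prc1 lies on chromosome 1 from 142087208 to 142108746 in the authors' genome and overlaps no other row of 10 or more counts.

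Tpx2, which activates Aurora A and nucleates spindle microtubules, was the other member with an unadjusted p under 0.05. It had 409, 485 and 428 counts in the CCI libraries and 358, 304 and 357 counts in the sham libraries, a log2 fold change of 0.45 (95% interval 0.12 to 0.77, standard error 0.14, unadjusted p = 0.0149 and adjusted p = 0.337, edgeR). It missed the size of 0.58 and was not called in any of 14 alternative fits, where the log2 fold change lay between 0.26 and 0.51. Kif11, the motor that pushes the spindle poles apart, had a log2 fold change of 0.29, Kif23 of the midbody 0.03 and Nusap1 0.20. Kif20a, a kinesin of cytokinesis, varied widely within both groups, with 893, 1272 and 1610 counts in the CCI libraries and 1404, 1293 and 798 in the sham libraries. A stretch of 3217 bases (32.8%) of its genomic span lies under Cdc23 on the opposite strand, which had a mean of 2916 counts. A second row with the symbol Nusap1 held at most 38 counts in a library.

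Of the 2 kinetochore genes, Cenpf had 324, 273 and 242 counts in the CCI libraries and 281, 173 and 157 counts in the sham libraries, a log2 fold change of 0.53 (95% interval -0.03 to 1.10, unadjusted p = 0.0612, edgeR). It was called when Sham 1 was left out, with a log2 fold change of 0.78. Cenpe, the kinetochore motor, had 357, 379 and 312 counts against 379, 411 and 352, and the groups overlapped at a log2 fold change of -0.06. Anln, anillin of the cleavage furrow, had 159, 156 and 169 counts in the CCI libraries and 152, 144 and 83 in the sham libraries, where Sham 3 was again the lowest. Its log2 fold change was 0.42 (95% interval -0.22 to 1.06) and 0.20 without Sham 3. For Ect2, which activates RhoA in cytokinesis, it was -0.16.

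Top2a and Mki67, the usual markers of dividing cells, were not called. Top2a, the topoisomerase that untangles chromosomes, had 511, 427 and 529 counts in the CCI libraries and 463, 386 and 310 counts in the sham libraries. The groups separated after scaling, with a log2 fold change of 0.42 (95% interval -0.02 to 0.85, unadjusted p = 0.0596, edgeR), below the size for a call. Mki67, which encodes the Ki-67 antigen of cycling cells, had 1262, 1625 and 1235 counts against 1772, 1495 and 1083. The groups overlapped with a log2 fold change of -0.01 (95% interval -0.45 to 0.44), and its sign changed in 7 of the 14 alternative fits. Of the genomic span of the Mki67 row, 5208 bases (16.3%) lie under Ptpre on the opposite strand, which had a mean of 5839 counts. Whether its value holds reads of Ptpre depends on the use of strand.

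**Figure D3:**
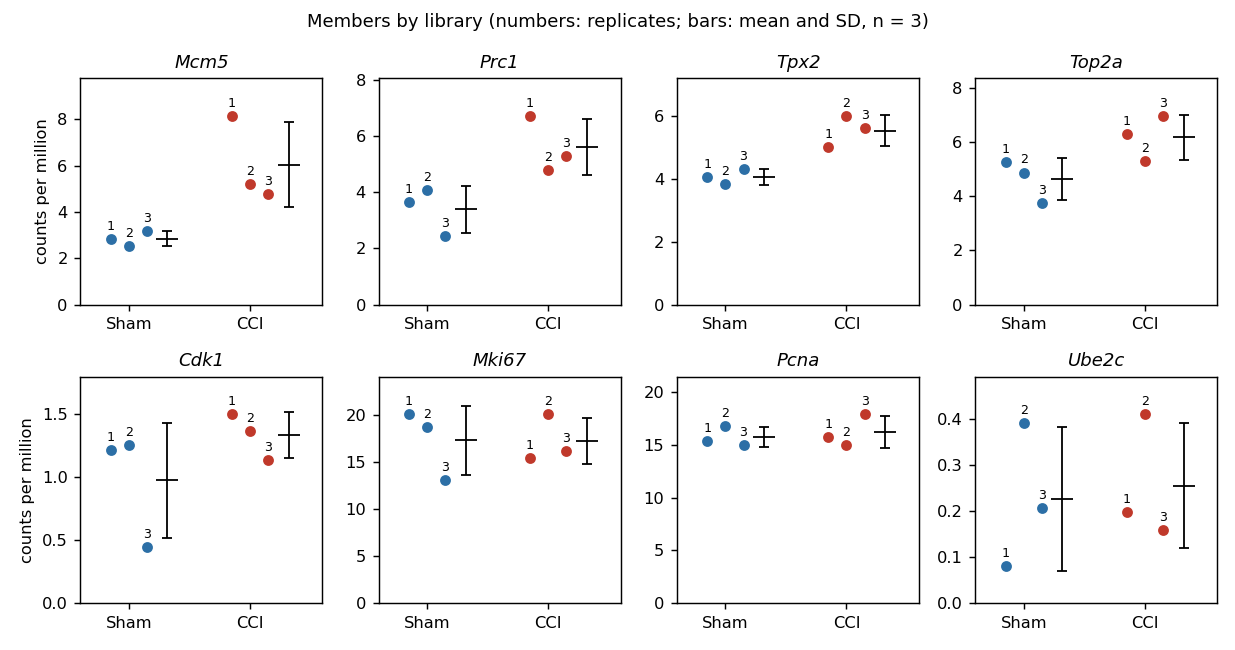
Level of 8 members in each library in CPM, with the replicate number beside each point and the mean and SD of each group (n = 3). The CCI points of Mcm5, Prc1, Tpx2 and Top2a lie above all Sham points, while those of Cdk1, Mki67, Pcna and Ube2c overlap them.

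The promoters of the members were searched because genes of replication and of mitosis are known to be controlled through different short sequences. E2F sites are typical of genes that rise at the start of replication, and the cell cycle homology region (CHR), often placed downstream of CCAAT boxes bound by NF-Y, is typical of genes that peak in mitosis. RefSeq promoters of the GRCr8 build, each with 250 bases before and 50 after the start of the gene, were matched by symbol for 30 of the 39 members. Both strands were searched for CCAAT, for TTTGAA or TTCGAA (CHR), and for TTTGGCGC, TTTCGCGC, TTTCCCGC or TTTGCCGC (E2F). The sequences shown are those of the members with the lowest p that had an entry, 1 per role. Each is written 5′ to 3′ on the strand of its gene, and capitals mark the matches, those on the other strand included.

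Mcm5: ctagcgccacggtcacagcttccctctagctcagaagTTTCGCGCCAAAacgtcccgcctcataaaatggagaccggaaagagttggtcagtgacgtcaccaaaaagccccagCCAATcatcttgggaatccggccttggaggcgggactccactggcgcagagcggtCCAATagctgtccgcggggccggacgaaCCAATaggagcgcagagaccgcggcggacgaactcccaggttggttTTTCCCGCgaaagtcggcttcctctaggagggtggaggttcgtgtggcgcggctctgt
Prc1: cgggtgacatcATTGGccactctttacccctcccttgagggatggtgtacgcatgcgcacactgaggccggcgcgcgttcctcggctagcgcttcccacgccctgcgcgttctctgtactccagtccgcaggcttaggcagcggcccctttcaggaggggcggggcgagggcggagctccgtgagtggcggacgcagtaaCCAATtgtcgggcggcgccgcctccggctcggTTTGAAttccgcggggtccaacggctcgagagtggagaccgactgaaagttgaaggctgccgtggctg
Top2a: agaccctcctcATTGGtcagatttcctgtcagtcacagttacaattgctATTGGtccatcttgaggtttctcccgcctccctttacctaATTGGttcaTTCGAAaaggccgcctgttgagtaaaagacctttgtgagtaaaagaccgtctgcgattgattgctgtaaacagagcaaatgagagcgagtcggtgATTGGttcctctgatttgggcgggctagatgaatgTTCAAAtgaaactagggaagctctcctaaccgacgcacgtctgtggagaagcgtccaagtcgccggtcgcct
Cenpf: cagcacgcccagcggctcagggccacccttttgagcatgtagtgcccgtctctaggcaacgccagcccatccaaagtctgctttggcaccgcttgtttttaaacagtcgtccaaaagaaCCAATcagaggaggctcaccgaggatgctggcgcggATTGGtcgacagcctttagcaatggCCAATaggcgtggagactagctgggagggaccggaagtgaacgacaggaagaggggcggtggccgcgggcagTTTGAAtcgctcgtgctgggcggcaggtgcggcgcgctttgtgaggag

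These are chr19:13488563-13488862 on the plus strand for Mcm5, chr1:143659231-143659530 on the plus strand for Prc1, chr10:84473044-84473343 on the minus strand for Top2a and chr13:103760837-103761136 on the minus strand for Cenpf, all in GRCr8. The Mcm5 promoter holds 3 CCAAT and 3 E2F matches, of which TTTCGCGC and the reverse complement of TTTGGCGC overlap, and 0 CHR matches. The other promoters hold 0 E2F matches. Prc1 has 2 CCAAT matches and 1 CHR match, Top2a has 4 CCAAT and 2 CHR matches, and Cenpf has 3 CCAAT matches and 1 CHR match. The windows of the 2 members called thus share CCAAT and differ in E2F and CHR.

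The same contrast ran through the members. An E2F match was present in 7 of the 8 promoters of replication genes and in 1 of the 22 of the other roles, that of Cdk1. A CHR match was present in 2 of those 8 and in 14 of those 22. Over all 30 member promoters the shares were 70.0% for CCAAT, 53.3% for CHR and 26.7% for E2F. Over the 89 promoters of other cell cycle genes they were 56.2%, 49.4% and 14.6%, so the CHR share of the members was close to theirs. Over all 33469 RefSeq promoters of this length they were 37.5%, 19.7% and 2.14%, and over the 13212 of protein-coding genes tested here 36.6%, 14.1% and 3.61%. A match is a description of the letters and not a measured binding site.

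**Figure D4:**
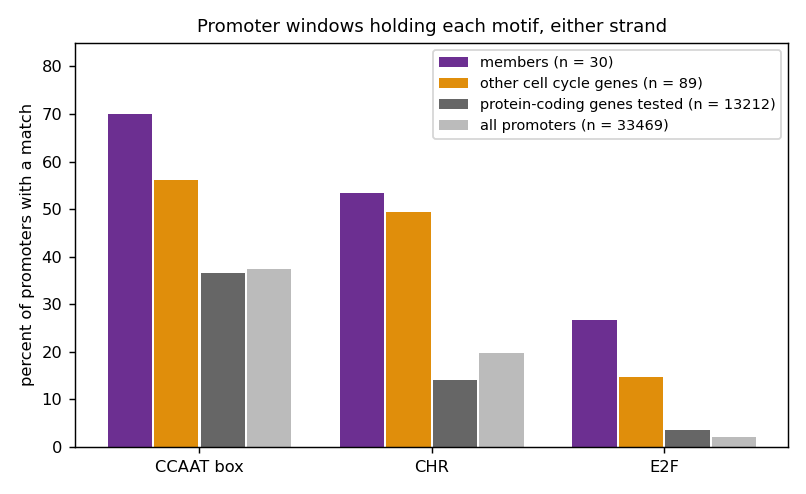
Percent of promoter windows of 300 bases that hold a match to each motif on either strand, for the members, the other cell cycle genes, protein-coding genes tested and all RefSeq promoters. The members stand at 70.0% for CCAAT, 53.3% for CHR and 26.7% for E2F, above all promoters in each case.

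Beyond the members, 103 of 106 other cell cycle genes were found and tested. Of these, 8 (7.77%) were called higher and 1 (0.971%) lower, against 2.80% and 1.38% of all rows by the same rule. In edgeR 0 passed an adjusted p under 0.05, and 14 (13.6%) had an unadjusted p under 0.05, against 10.4% of all rows. The count of 8 was 4 without CCI 3 and 5 without CCI 1, CCI 2 or Sham 2, and the count of 1 was 2 without CCI 3. DESeq2 placed Cdkn1a (adjusted p = 0.00131) and Kif22 (adjusted p = 0.0392) past that limit. The median log2 fold change of this list was 0.03. Of the 6 G1 cyclins and kinases 0 were called. Ccnd1, cyclin D1, which links growth signals to the cycle, had 3575, 3833 and 2696 counts in the CCI libraries and 4445, 4418 and 2082 counts in the sham libraries, which overlapped, with a log2 fold change of -0.05 (95% interval -0.75 to 0.65). Of the 14 E2F, DREAM and MYB-MuvB factors measured 0 were called. Their log2 fold changes ran from -0.42 to 1.74 around a median of 0.03, at mean FPKM from 0.0815 to 14.8.

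Of the 9 inhibitors and pocket proteins measured 1 was called higher. This was Cdkn1a, the p53-inducible inhibitor p21 that halts the cycle, with 1092, 612 and 701 counts in the CCI libraries and 268, 436 and 340 counts in the sham libraries. All CCI libraries lay above all Sham libraries, with 10.1 ± 3.01 CPM against 4.22 ± 1.23 CPM (SD, n = 3) and a log2 fold change of 1.25 (95% interval 0.55 to 1.96, unadjusted p = 0.00426 and adjusted p = 0.229, edgeR). The call was kept in all 14 alternative fits, between 0.95 and 1.49. An inhibitor of the cycle was thus called alongside a helicase subunit.

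Of the 26 other replication genes 2 were called higher, Mcm10 among them. Mcm10, which helps to activate the loaded helicase, had 53, 88 and 89 counts against 46, 15 and 31, a log2 fold change of 1.41 (unadjusted p = 0.02 and adjusted p = 0.368, edgeR), and lost its call without CCI 2 (1.32) and without CCI 3 (1.26).

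Of the 48 other mitosis genes measured 5 were called higher and 1 lower. Kif22, a chromosome-arm kinesin, had 650, 405 and 422 counts in the CCI libraries and 270, 265 and 338 counts in the sham libraries, a log2 fold change of 0.82 (unadjusted p = 0.00904 and adjusted p = 0.285, edgeR). Ckap2, a spindle protein, had 140, 144 and 143 counts against 84, 40 and 100, a log2 fold change of 1.01, and lost its call without CCI 3 (0.97). Pttg1, securin, had 55, 71 and 43 counts against 36, 18 and 6 (log2 fold change 1.57), Kif18b, a motor that shortens microtubules, 123, 60 and 110 against 65, 39 and 15 (1.38), and Kif15, a spindle kinesin, 255, 242 and 180 against 78, 136 and 179 (0.83). Of the Kif15 span 3529 bases (4.97%) lie under RGD1311745 on the opposite strand, which had a mean of 354 counts against 178. The call of Pttg1 was lost without any 1 library other than Sham 1 (1.15 to 1.71), and that of Kif15 without any 1 other than Sham 3 (0.54 to 0.95). That of Kif18b was lost without CCI 1 (1.21), CCI 3 (1.26), Sham 2 (1.42) or Sham 3 (0.9996). The calls of Kif15 and Kif18b were also lost under the replicate block (0.91 and 1.48) and in limma on log2(FPKM + 0.1) (0.73 and 0.89), where the size stayed past 0.58 and the p did not pass. Spc25, a subunit of the Ndc80 kinetochore complex, was the gene called lower, with 52, 63 and 50 counts in the CCI libraries and 138, 113 and 105 counts in the sham libraries. Its libraries did not overlap, with 0.692 ± 0.077 CPM against 1.42 ± 0.148 CPM (SD, n = 3) and a log2 fold change of -1.04 (unadjusted p = 0.00297 and adjusted p = 0.202, edgeR). The partners of Spc25 in that complex, Ndc80, Nuf2 and Spc24, were not called, with log2 fold changes of 0.11, 0.19 and -0.31. In limma on log2(FPKM + 1) the calls of Mcm10 (0.14), Kif22 (0.53), Ckap2 (0.33), Pttg1 (0.43), Kif18b (0.21), Kif15 (0.25) and Spc25 (-0.43) were lost.

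Markers of the cell types of the ganglion were read in the same libraries. Of 13 macrophage markers 7 were called higher in the CCI group, namely Csf1r, Cx3cr1, Cd68, C1qa, C1qb, C1qc and Tyrobp, and 0 lower, against 2.80% and 1.38% of all rows. Aif1, Adgre1, Cd163, Mrc1, Itgam and Ptprc were not called, and Sham 3 was the highest library in 2 of the 13. The summed level of the 13 markers was 208, 183 and 144 CPM in CCI 1, 2 and 3 and 107, 104 and 133 CPM in Sham 1, 2 and 3, a ratio of 1.55, and the most abundant, C1qc, had a mean of 12.3 FPKM. None of the 13 was at 0 in any library. The order of all 6 libraries in this sum was also that of Mcm5 in CPM, from CCI 1 over CCI 2, CCI 3, Sham 3 and Sham 1 down to Sham 2, but not that of the summed members, where CCI 3 was the highest. The part of macrophages in the values of Mcm5 and of the other members was not tested.

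Of the other lists, that of skeletal muscle alone had calls. The 7 T cell markers summed to 1 to 1.89 CPM per library, led by Lck with 0.403 FPKM, and Cd3e, Cd3d, Cd3g, Cd5 and Cd247 were at 0 in at least 1 library, and 3 of the 7 had the mean count of 10 needed for the test. The 5 B cell markers summed to 1.04 to 1.72 CPM, led by Cd79a with 0.415 FPKM, and Cd79b was at 0 in CCI 2 and Sham 2. Summed ratios of CCI over Sham were 1.01 for 8 satellite glia markers, 0.957 for 9 sensory neuron markers, 0.896 for 5 endothelial, 0.903 for 5 fibroblast and 0.716 for 3 erythroid markers, led by Apoe, Tubb3, Cdh5, Dcn and Hbb, with 0 calls in each by edgeR. Of 7 Schwann cell markers 0 were called. Single libraries stood apart in these sums. CCI 1 was the lowest library in all 5 fibroblast markers, with a sum of 1644 CPM against 2479 to 2796 CPM in the others, and in the endothelial sum, with 66.4 CPM against 79.8 to 106 CPM. It was also the highest library for Mcm5, Prc1, Cdkn1a and Kif22. Sham 1 held the highest erythroid sum, 58 CPM against 22.7 to 33.2 CPM. Cldn5 of the endothelium was at 0 in all 6 libraries. Of 5 skeletal muscle genes 4 were called lower, and Sham 1 held 367 CPM of them and Sham 3 held 46.5 CPM against 8.47 to 22.4 CPM in the CCI libraries and 11.4 in Sham 2. Acta1 led that list with 13.2 FPKM. Without Sham 1, whose ganglia carried this muscle signal, the members called were 4, namely Mcm5, Prc1, Plk1 and Cenpf, and the median log2 fold change of the members was 0.20.

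**Figure D5:**
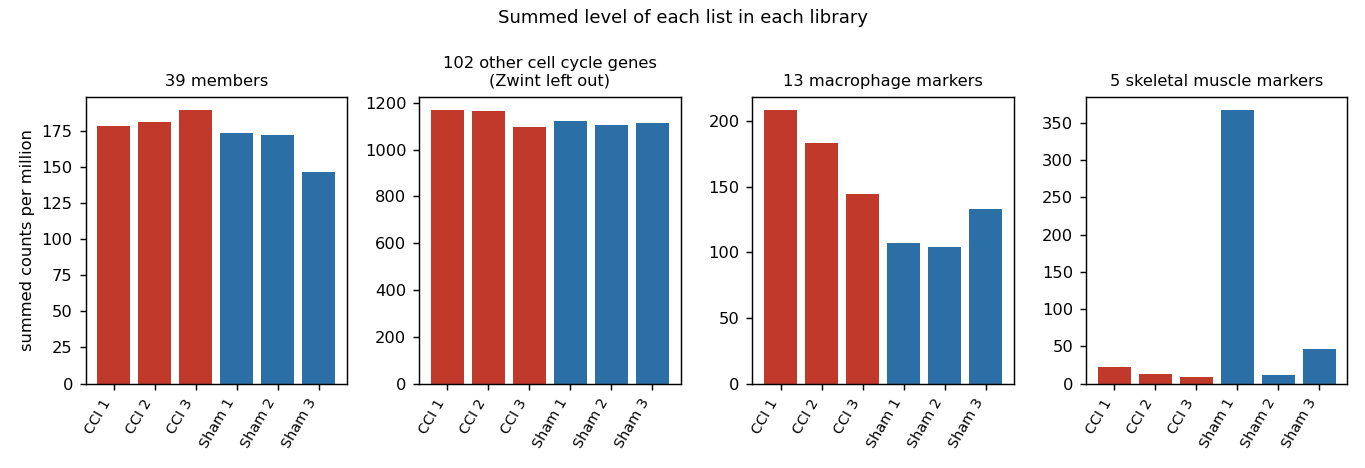
Summed CPM of the 39 members, of the other cell cycle genes without the very abundant Zwint, of 13 macrophage markers and of 5 skeletal muscle markers in each library. The members range from 146 in Sham 3 to 189 in CCI 3, the macrophage markers from 104 in Sham 2 to 208 in CCI 1, and the muscle markers reach 367 in Sham 1.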

How the data were processed

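The samples were total RNA of rat DRG, depleted of ribosomal RNA and read in paired ends. The authors mapped with HISAT to a rat genome named V101 and assembled transcripts with StringTie; the submitters' processing notes name HISAT2 2.0 and StringTie 1.3.0. The deposited counts are whole reads per gene row without normalization, and the FPKM values were made by the authors from them, with a small constant at a count of 0. Use of strand is not stated.

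A member's row was taken by symbol, protein-coding type first, then the largest total. Rows with a mean count of at least 10 (29307 rows) were tested with edgeR 4.0.16 (R 4.3.3), TMM factors of 0.987 to 1.01 and the quasi-likelihood F-test, with Benjamini-Hochberg adjustment over all rows. A call needed an unadjusted p below 0.05 and a size of 0.58 or more on the log2 scale. Intervals are 95% intervals from the same fit. With 3 rats against 3, p-values rest on the spread between these rats. The functions were tested on simulated data. Alternatives were DESeq2 1.42.0, RLE factors, no filter, a limit of 0.5 on mean FPKM, protein-coding rows, limma 3.58.1 on log2(FPKM + 0.1) and log2(FPKM + 1), a replicate block and leaving out each library.

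Genes given in full are the members called, the most and least abundant, Mki67, Top2a, Cdk1, Pcna, the most abundant of each role without a call, 8 of the 9 called genes of the other list, Ccnd1 and Cdkn1a; Mcm7, Cdc6, Plk1, Melk, Ttk, Aurkb, Tpx2, Kif20a, Cenpf and the partners of Spc25 were added after their values were seen. The members and lists were chosen with earlier results of these data known.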

Additional observations from a re-analysis of the deposited data

How the results depend on the processing

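Of the 2 members called, Mcm5 kept its call in all 14 alternative fits and Prc1 in 11. Of 507 values of the 37 other members, 472 stayed on the same side of 0 and of the limits, 32 changed sign without a call and 3 passed the limits (Plk1 without CCI 1 and without Sham 1, Cenpf without Sham 1). Of 121 values of the 9 other cell cycle genes called, 93 kept the call, 28 lost it in the same direction and 0 reversed.

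DESeq2 gave 778 rows and 1 member past an adjusted p under 0.05, and 2 other cell cycle genes called lower. A mean FPKM of at least 0.5, which left 28 members and 76 other genes, gave 3 of those genes called higher. Protein-coding rows alone gave 643 rows called and 58 past an adjusted p under 0.05. Limma on log2(FPKM + 1) gave 590 rows called, 1 member called higher, a median of the members of 0.0834, and 2 other genes called higher and 0 lower. The added 1 compresses low values, but its part in these counts was not tested. The cause of the other changes was not tested either.

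With single libraries left out, rows called lay between 1079 and 1373 and rows past an adjusted p under 0.05 between 5 and 58. Members called higher lay between 1 and 4, the median of the members between 0.11 and 0.26, the ratio of sums between 1.06 and 1.15, and other genes called higher between 4 and 7 and lower between 1 and 2. With RLE factors, no filter and limma on log2(FPKM + 0.1) these counts stayed within 1.5 times the reported ones.

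Same-numbered libraries did not deviate together (correlations of -0.006, -0.018 and -0.052). Whether the rats were paired by design cannot be read from this, since a pairing need not leave a shared deviation. The replicate block left 1131 rows called and 0 past an adjusted p under 0.05, with 2 members called higher, 0 lower, 0 past an adjusted p under 0.05, a median of 0.19, and 6 other genes called higher and 1 lower. The ratio of sums has no value under the block or limma.

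Ube2c, with 7 to 33 counts in a library, had an interval of -1.58 to 1.94. The intervals of Ttk and Melk also passed -1 or 1, and their counts varied between the CCI libraries, while that of Bub1b, at 37 to 56 counts, stayed within. How far depth sets these intervals was not tested.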

Other observations

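Zwint, listed here with the other mitosis genes, stood apart in level from every other cell cycle gene. It had a mean of 727 FPKM, with 133519, 67015 and 122771 counts in the CCI libraries and 131347, 125685 and 132726 counts in the sham libraries, so CCI 2 was far below the other 5 libraries. The log2 fold change of -0.20 (95% interval -0.79 to 0.40) was not called.

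Racgap1, a partner of Kif23 in the central spindle, had 638, 279 and 824 counts in the CCI libraries and 1045, 1076 and 1051 counts in the sham libraries. The groups did not overlap, and the log2 fold change of -0.79 (95% interval -1.69 to 0.12) was not called, with CCI 2 again the lowest. Cit, citron kinase of cytokinesis, was also separated, with 1879, 2057 and 1551 counts against 3053, 2124 and 2780 and a log2 fold change of -0.47, below the size for a call. Hjurp, the chaperone of centromeric histone Cenpa, had 632, 615 and 443 counts against 367, 342 and 481 and a log2 fold change of 0.57. These genes were chosen after their values were seen.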
